A study of Mus musculus with 24 samples.

Results

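Expression of 10 lysosomal genes was followed in mouse macrophages with and without *Olfml3*, a gene for a secreted olfactomedin-like protein. The genes were the cathepsins *Ctsb*, *Ctsd*, *Ctsl*, *Ctss* and *Ctsz*, the membrane proteins *Cd68*, *Lamp1* and *Lamp2*, and the transcription factors *Tfeb* and *Tfe3*. They were chosen by symbol, and each of the 10 was found once among the 56691 genes of each deposited table. All 10 had reads in every library and entered every test. RNA-seq of poly(A) RNA gave 24 libraries in 8 groups of 3. RAW264.7, a macrophage-like mouse line, was compared as wild type and as *Olfml3* knockout, the knockout lines of the study being single-cell clones made with lentiviral guide RNAs. Bone marrow-derived macrophages (BMDMs) came from 8-week-old male C57BL/6 mice, wild type or *Olfml3*-/- in the whole body by CRISPR-Cas9, and were grown for 6 days with L929 cell supernatant. Each genotype received PBS or lipopolysaccharide (LPS), an outer membrane component of Gram-negative bacteria, at 100 ng/mL for 4 h. The labels do not say whether the 3 libraries of a group came from separate animals or cultures, so p-values measure the spread between these samples, which may be technical.

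Lysosomes are acidic organelles in which macrophages break down engulfed material. Cathepsins are their proteases. Cathepsin D is an aspartic protease, and cathepsins B, L, S and Z are cysteine proteases. LAMP1 and LAMP2 are the abundant glycoproteins of the lysosomal membrane, and CD68 is a related glycoprotein of macrophage endosomes and lysosomes. TFEB and TFE3 are transcription factors of the MiT/TFE family, known for binding CACGTG-type sites near genes of lysosomal proteins. They are controlled largely by phosphorylation and nuclear entry, which RNA levels do not measure.

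The 250 bases before the transcription start were read for the members from RefSeq on GRCm38.p6, to show where the core CACGTG, a palindrome that reads the same on both strands, occurs in the genes of the proteins these factors are known for. Windows were found for 9 of the 10 genes, 12 windows in all, and not for *Ctsb*. *Lamp1*, *Ctsd* and *Ctsl* held CACGTG, which occurs in 6.02% of all 32851 windows. The *Lamp1* window lies on the plus strand at chr8:13158911-13159160 and has 4 copies, starting 61, 45, 28 and 15 bases before the start. The *Ctsd* window lies on the minus strand at chr7:142387828-142388077 and has 2 copies, starting 245 and 98 bases before it, of which the nearer lies inside the longer palindrome TCACGTGA, found in 0.785% of all windows. The copies are in capitals, written 5′ to 3′ in the sense of the gene.
Lamp1: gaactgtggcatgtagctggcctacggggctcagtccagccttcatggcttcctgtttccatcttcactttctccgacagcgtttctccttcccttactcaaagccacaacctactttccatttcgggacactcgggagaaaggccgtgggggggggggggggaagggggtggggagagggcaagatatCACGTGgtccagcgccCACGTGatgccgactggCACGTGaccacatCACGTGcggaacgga
Ctsd: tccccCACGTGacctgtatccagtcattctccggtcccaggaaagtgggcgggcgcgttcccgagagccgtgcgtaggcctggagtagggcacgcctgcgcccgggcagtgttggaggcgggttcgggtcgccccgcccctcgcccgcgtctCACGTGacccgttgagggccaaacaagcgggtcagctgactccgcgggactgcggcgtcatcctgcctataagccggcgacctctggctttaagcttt
In *Ctsl* the single copy starts 236 bases before the start, in the window chr13:64370521-64370770 on the minus strand. The windows of *Ctss*, *Ctsz*, *Cd68*, *Lamp2*, *Tfeb* and *Tfe3* hold no CACGTG.

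*Ctss* is shown because it had the largest difference between BMDM genotypes among the cathepsins. Its window, on the plus strand at chr3:95526536-95526785, was also searched on both strands for GAAANNGAAA, a spacing known from interferon response elements, a motif chosen after the values were seen. It has 1 match, in capitals, 21 bases before the start. Among the members *Lamp1* also has a match, and 2.98% of all windows do.
Ctss: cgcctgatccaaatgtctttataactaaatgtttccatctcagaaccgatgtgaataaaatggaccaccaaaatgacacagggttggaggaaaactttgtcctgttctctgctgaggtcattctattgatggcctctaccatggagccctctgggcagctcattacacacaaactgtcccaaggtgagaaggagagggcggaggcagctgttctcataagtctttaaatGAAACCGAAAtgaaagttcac
A match describes letters in the window, and binding was not measured here.

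Levels are given as FPKM, read fragments divided by exon length and by the library total, which allow genes of different length to be compared. Labels here are the titles, which the genotype tag goes against for 12 of 24 libraries. *Olfml3* itself was read first as a check of the labels. In BMDMs it was at 0.53 to 0.65 FPKM in wild type with PBS and at 0.24 to 0.25 with LPS, against at most 0.03 in the knockout libraries. In RAW264.7 it went against the label, with 0.13 to 0.29 FPKM in wild type, 0.65 to 1.19 in the libraries labelled knockout with PBS and 18.3 to 18.9 in those labelled knockout with LPS. The RAW264.7 groups are therefore called by their labels. The study used Sanger sequencing to characterize the mutations of its knockout clones. RNA level does not show whether such alleles make protein, so it does not settle the label. Replicate 1 of the knockout-labelled RAW264.7 libraries with PBS stood apart from replicates 2 and 3, with a chi-square per degree of freedom of 80.3 and 81.1 against 1.84 to 2.72 for the other RAW264.7 replicate pairs. By mean correlation over all genes tested, it alone among RAW264.7 libraries was nearer to the other genotype than to its own group (difference -0.0095). It was the highest of its group for 8 of the 10 members, so the genotype comparison with PBS, the response of the libraries labelled knockout and the interaction are also given without it, a choice made after seeing the data. In BMDMs the replicate pairs of wild type with LPS gave 10.4, 8.50 and 4.76, against 1.76 to 2.68 for the other pairs. Replicate 1 of that group was its highest for *Ctsb*, *Ctsd*, *Ctsl*, *Ctss*, *Ctsz*, *Cd68* and *Lamp1*, and its lowest for *Tfe3*. Of 7 macrophage markers, 7 reached 1 FPKM in BMDMs and 6 in RAW264.7, where *Mertk* was listed at 0. Their summed level in RAW264.7 was 2771 to 3554 FPKM in wild type and 728 to 956 in the libraries labelled knockout, mostly through *Lyz2*, the lysozyme gene, at 2052 FPKM in wild type and 317 in the libraries labelled knockout with PBS and 2201 and 408 with LPS. With PBS *Csf1r*, the receptor for M-CSF, was higher in the libraries labelled knockout, at 340 against 263 FPKM, as was the Fc receptor gene *Fcgr1*, at 22.1 against 18.3. With LPS both were lower there, *Csf1r* at 78.5 against 100.2 and *Fcgr1* at 7.96 against 22.3 FPKM. *Lyz2*, *Csf1r* and *Fcgr1* do not make up the whole gap between the sums. The sums also hold *Adgre1*, *Itgam* and *Cd14*, which are not given singly.

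The 10 genes took 2.94 to 4.37% of all counts in BMDMs and 0.332 to 0.594% in RAW264.7. The tables of the cell types were made separately, so the levels stand side by side without a test. In wild-type BMDMs with PBS, *Ctsd* was the highest at 4068 ± 66.6 FPKM (SD, n = 3), before *Ctsb* at 3495 ± 8.15 and *Ctss* at 3202 ± 54.8. *Cd68* at 1656, *Lamp1* at 1189, *Ctsz* at 574, *Ctsl* at 161 and *Lamp2* at 104 FPKM followed. *Tfe3* at 15.6 and *Tfeb* at 6.71 FPKM were the lowest. No neighbours in this order overlapped between libraries.

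In wild-type RAW264.7 with PBS the order was another. *Cd68* came first at 578 ± 6.29 FPKM, and *Ctsz* at 414 and *Ctss* at 406 overlapped. *Lamp1* at 363, *Ctsb* at 303, *Ctsd* at 231, *Ctsl* at 45.9, *Lamp2* at 25.2, *Tfe3* at 12.2 and *Tfeb* at 8.28 FPKM followed without overlap. *Ctsd* was 17.6 times and *Ctsb* 11.5 times higher in BMDMs than in RAW264.7, whereas *Ctsz* was 1.39 times and *Tfe3* 1.28 times higher, and *Tfeb* was 1.23 times higher in RAW264.7.

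**Figure D1:**
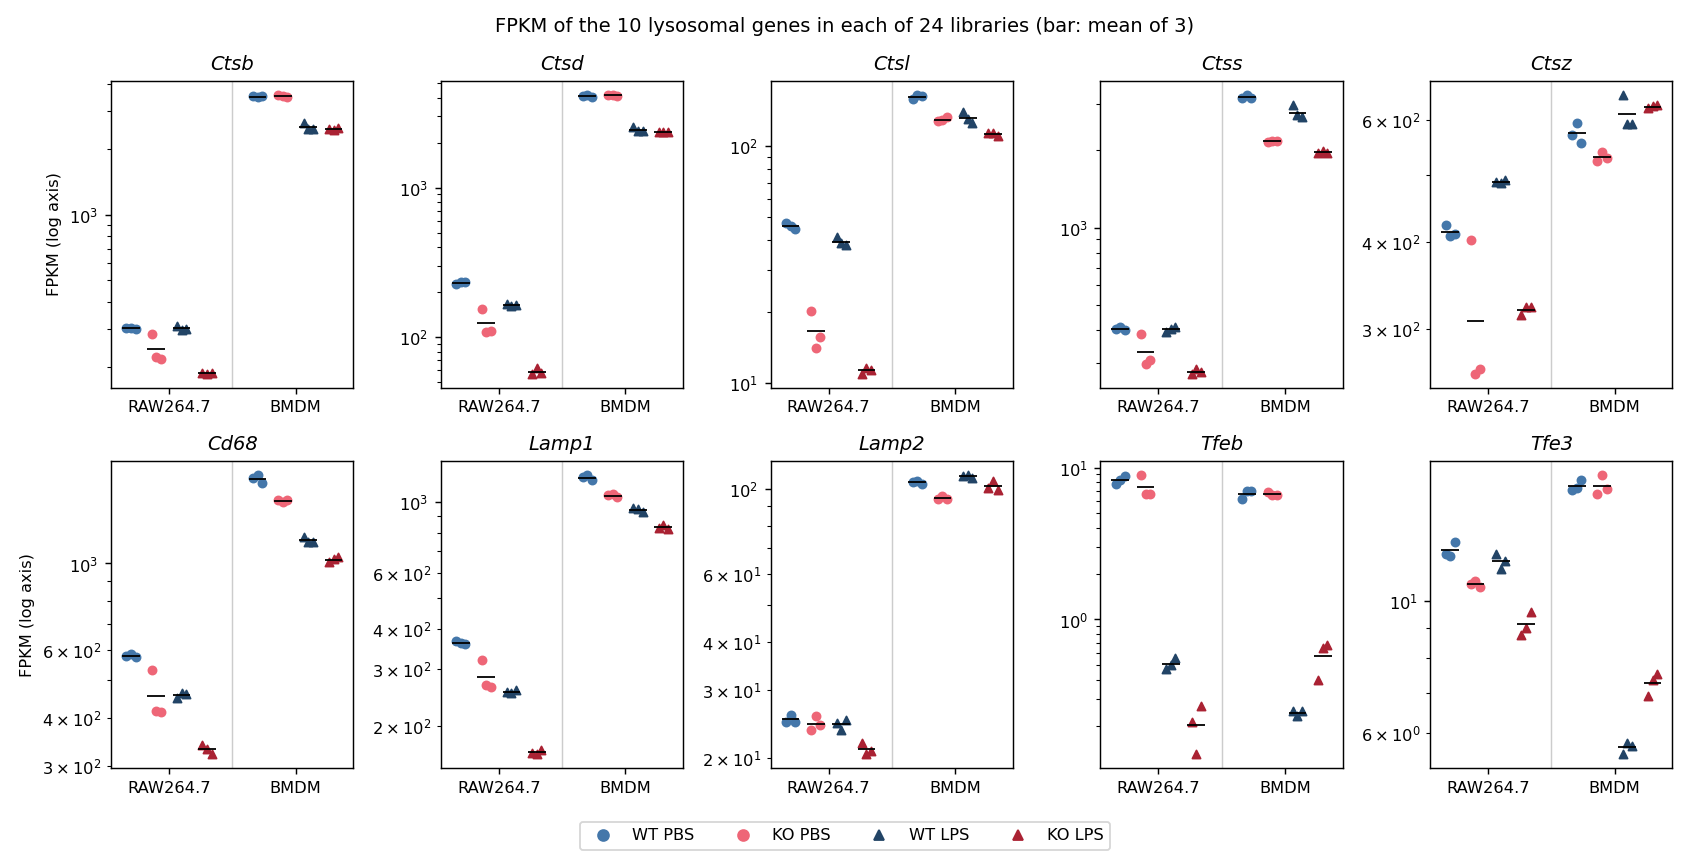
FPKM of each gene on a log axis, 1 point per library and a bar for the mean of 3, for wild type (WT) and *Olfml3* knockout (KO, as labelled) with PBS or LPS in both cell types. *Tfeb* lies between 6.19 and 8.90 FPKM in the PBS libraries and between 0.13 and 0.68 in the LPS libraries.

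The libraries labelled knockout and wild type were first compared in RAW264.7. Differences are log2 fold changes from limma on log2(FPKM + 0.1), and a gene was called when its Benjamini-Hochberg adjusted p over all genes tested was under 0.05 and its fold change at least 1.5. With PBS, 2 members were called lower in the libraries labelled knockout and 0 higher, against 3.77% and 4.79% of all 26740 genes tested. Of these genes 12290 reached 1 FPKM in 3 libraries, so shares over all genes include many near the floor, unlike most members. Shares among expressed genes can be larger. *Ctsl* was 20.2, 14.1 and 15.7 FPKM in replicates 1 to 3 of the libraries labelled knockout and 47.2, 45.9 and 44.7 in wild type. All 3 lay far below wild type, a fall of 1.48 on the log2 scale (SE 0.12, adjusted p = 5.50e-05). *Ctsd* was 155, 108 and 109.9 FPKM against 227, 233 and 232, a fall of 0.91 (SE 0.13, adjusted p = 0.00167). Replicate 1 lay nearer to wild type than its fellows for both genes. Without it the falls were 1.62 and 1.08, and *Ctsz* was called too, with a difference of -0.67 against -0.46 with it, so that 3 members were called lower, against 8% of genes.

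The other members differed less. The libraries labelled knockout lay wholly below wild type for 8 of the 10 genes, as 10.4% of all genes did, and *Lamp2* and *Tfeb* overlapped. By adjusted p at any size of change, 4 members were lower, against 5.36% of genes. The median over the 10 was -0.35, against 0.02 over all genes tested. Without replicate 1, 8 members were lower by adjusted p at any size, against 14.6% of genes, and the median was -0.45, against 0.01. The other 2 libraries then lay wholly below wild type for 9 members, as 20.4% of genes did. The members at -0.42 to -0.48 without it were *Ctsb*, *Ctss*, *Cd68* and *Lamp1*, and *Tfe3* was at -0.19, all 5 past the adjusted p. *Tfeb* at -0.31 and *Lamp2* at -0.01 were not.

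With LPS, all 3 libraries labelled knockout lay below all 3 of wild type for each of the 10 genes, as was so for 18.6% of all genes. By adjusted p at any size all 10 were lower, against 11.5% of genes. At 1.5-fold, 6 members were called lower and 0 higher, against 7.6% and 9.73% of genes, and the median was -0.62, against 0.00 over all genes tested. In a fit of only the 12290 genes at 1 FPKM in 3 libraries, 3817 were called, 53.1% of them higher. There 6 members were again lower.

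Of the proteases, *Ctsl* was 10.9, 11.6 and 11.4 FPKM in the libraries labelled knockout and 41.4, 38.8 and 38.2 in wild type with LPS. This was the widest gap among the members, with a log2 fold change of -1.79 (SE 0.12, adjusted p = 1.24e-05). *Ctsd* was 56.8, 62.3 and 57.3 FPKM against 165, 162 and 165, a log2 fold change of -1.48 (SE 0.13, adjusted p = 5.91e-05). *Ctsb* was 188, 186 and 187 FPKM against 308, 296 and 301, a change of -0.69 (SE 0.10, adjusted p = 0.00129). The replicates were close in both groups. *Ctsz*, a carboxypeptidase, changed by -0.62 (SE 0.15, adjusted p = 0.0163). *Ctss* missed the fold threshold at -0.54 (SE 0.10, adjusted p = 0.00488).

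Among the membrane proteins *Lamp1* was called, with 165, 163 and 168 FPKM in the libraries labelled knockout and 256, 252 and 259 in wild type. Its change was -0.63 (SE 0.08, adjusted p = 8.62e-04). *Cd68* at -0.46 and *Lamp2* at -0.22 were under the fold threshold. Of the transcription factors, *Tfeb* was 0.21, 0.13 and 0.27 FPKM against 0.47, 0.50 and 0.56, a change of -1.03 (SE 0.18, adjusted p = 0.00342). These levels rest on 10 to 19 and 34 to 46 counts per library, and with a pseudocount of 1 the change was -0.33. *Tfe3* changed by -0.35 (SE 0.07), with 8.76 to 9.58 FPKM against 11.3 to 11.97.

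Scaled to TPM, which divides by length before the library total, the calls of *Ctsb*, *Ctsz* and *Lamp1* were lost and those of *Ctsd*, *Ctsl* and *Tfeb* remained, since the median gene at 1 FPKM or more shifted from -0.02 to 0.21. The summed level of the macrophage markers, with *Lyz2* the highest but not the only one to differ, was not equal between the RAW264.7 genotypes. With LPS it was 884 to 956 FPKM in the libraries labelled knockout and 3417 to 3554 in wild type. The part of the marker level in these differences was not tested. The clonal origin of the line and the genotype cannot be told apart, nor can fewer cells of a type and less RNA per cell in bulk samples.

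In BMDMs with PBS, 0 members were called in either direction by limma, against 0.901% of genes higher and 0.916% lower, while 5 had an unadjusted p under 0.05, all lower. By adjusted p at any size 4 were lower, *Ctss*, *Ctsl*, *Cd68* and *Lamp1*, against 1.83% of genes. *Ctss*, a protease that trims the invariant chain of MHC class II, was 2152, 2161 and 2167 FPKM in knockout and 3177, 3265 and 3164 in wild type. The groups were far apart beside a spread of 7.66 and 54.8 (SD), yet the change of -0.57 (SE 0.05, adjusted p = 1.25e-04) stopped just under 1.5-fold. On TMM-scaled counts edgeR gave -0.61 and called it, the single member called lower there, against 1.97% of 14057 genes, and DESeq2 called it as well. *Ctsl* was 127, 129 and 132 FPKM against 158, 164 and 162, a difference of -0.32 (SE 0.05). *Cd68* and *Lamp1* each differed by -0.19 (SE 0.04). The knockout libraries also lay wholly below wild type for *Lamp2* (93.9 to 95.5 against 102.9 to 104.6 FPKM) and *Ctsz* (524 to 541 against 557 to 595). These 2 did not pass limma's adjusted p, and the share of all genes lying wholly below between BMDM genotypes is not given. edgeR gave *Lamp2* -0.18 (adjusted p = 4.70e-05) and *Ctsz* -0.15 (adjusted p = 0.00214), under 1.5-fold. *Ctsb* at 0.01, *Ctsd* at 0.02, *Tfeb* at -0.01 and *Tfe3* at -0.0017 on the log2 scale had overlapping libraries.

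With LPS, 1 member was called higher in knockout BMDMs and 0 lower, against 3.23% and 1.53% of genes. This was *Tfeb*, at 0.40, 0.65 and 0.68 FPKM in knockout and 0.25, 0.23 and 0.25 in wild type. All knockout libraries were above all wild-type ones, with a change of 0.95 (SE 0.15, adjusted p = 0.00172). The levels are low, 49 to 84 against 29 to 32 counts per library, and with a pseudocount of 1 the change was 0.34 and not called. *Tfe3* was 6.91 to 7.52 against 5.52 to 5.77 FPKM, a difference of 0.35 (SE 0.05, adjusted p = 0.00117) under the fold threshold. *Ctss* again lay lower, at 1949.9, 1974 and 1940.4 FPKM in knockout and 2974, 2721 and 2678 in wild type. Its difference was -0.51 (SE 0.05, adjusted p = 1.22e-04) with limma and -0.66 with edgeR, which called it as 4.6% of genes were. *Ctsl* at -0.23, *Lamp1* at -0.18 and *Cd68* at -0.16 passed the adjusted p but not 1.5-fold. On FPKM the median gene at 1 FPKM or more rose by 0.14 in this comparison, and by 0.0024 with edgeR. edgeR gave *Ctsl* -0.37, *Lamp1* -0.32, *Cd68* -0.31, *Lamp2* -0.23, *Ctsd* -0.19, *Ctsb* -0.17 and *Tfe3* 0.21, none past 1.5-fold.

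**Figure D2:**
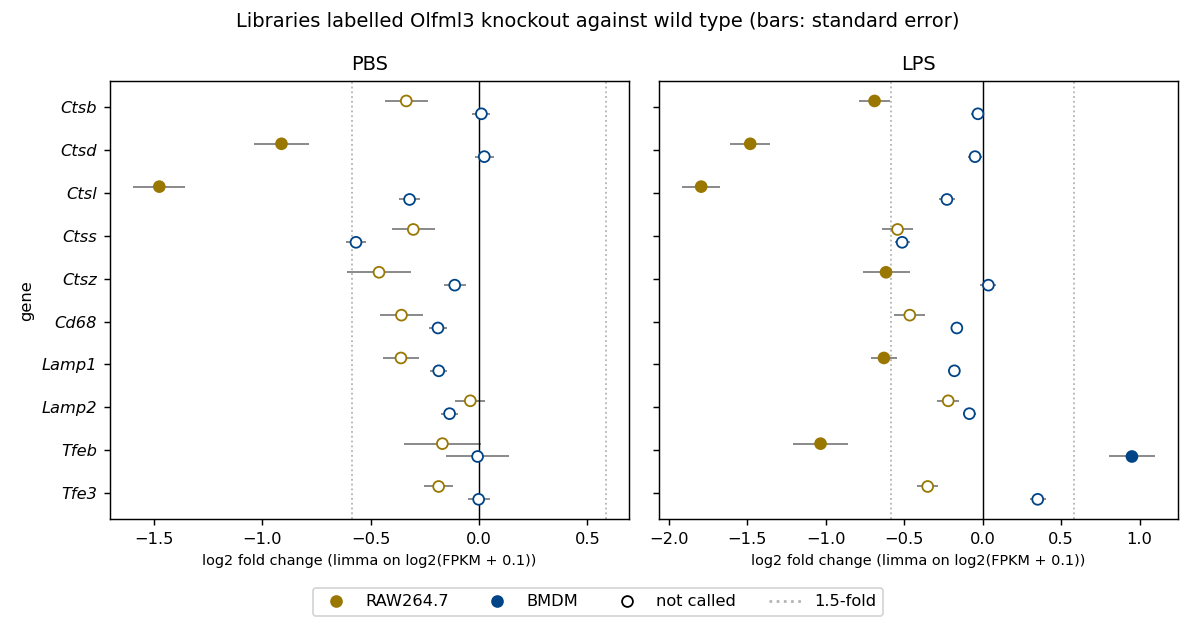
Log2 fold change of knockout (as labelled) against wild type per gene, with standard errors, for RAW264.7 and BMDMs with PBS (left) and LPS (right). Filled points were called. *Ctsd* and *Ctsl* are called in RAW264.7 in both panels, and *Tfeb* with LPS lies at -1.03 in RAW264.7 and 0.95 in BMDMs.

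Whether the response to LPS differed between genotypes was tested as an interaction. In RAW264.7 limma called 0 members, against 0.905% of genes higher and 1.04% lower, with 4 at an unadjusted p under 0.05, all more negative in the libraries labelled knockout. *Tfeb* had the largest value, -0.86 (SE 0.25, adjusted p = 0.167). edgeR gave -1.14 for it (adjusted p = 0.046) and called it, against 1.89% of genes lower, and DESeq2 called it as well. Without replicate 1 of the libraries labelled knockout with PBS, limma again called 0, with 5 at an unadjusted p under 0.05, while *Ctsd* at -0.40 and *Ctsb* at -0.23 passed the adjusted p at any size. In BMDMs 1 member was called higher and 0 lower, against 1.91% and 1.02% of genes. This was *Tfeb*, which fell less with LPS in knockout by 0.96 (SE 0.21, adjusted p = 0.0251). The call was lost in 6 of the 12 fits that left out 1 library, namely without replicate 2 of any of the 4 groups or replicate 3 of either PBS group, where adjusted p ran from 0.0536 to 0.0576 and the value from 0.87 to 0.95. With a pseudocount of 1 it was 0.34 (adjusted p = 0.0486), under 1.5-fold and not called. *Tfe3* had 0.35 (SE 0.07, adjusted p = 0.0187), under the fold threshold.

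*Tfeb* had the largest response to LPS of the 10 genes in each comparison, and these comparisons share their groups with those between genotypes. In wild-type RAW264.7 it was 7.75, 8.29 and 8.80 FPKM with PBS and 0.47, 0.50 and 0.56 with LPS. In wild-type BMDMs it was 6.19, 6.99 and 6.96 with PBS and 0.25, 0.23 and 0.25 with LPS. The mean was 16.2 times lower with LPS in the line and 27.6 times lower in BMDMs, with no overlap in either. The log2 fold changes were -3.78 (SE 0.18, adjusted p = 2.44e-07) and -4.31 (SE 0.15, adjusted p = 3.71e-09). In the libraries labelled knockout of RAW264.7 *Tfeb* went from 8.90, 6.66 and 6.68 to 0.21, 0.13 and 0.27 FPKM. This was a change of -4.64 (SE 0.18, adjusted p = 4.23e-08), and -4.51 without replicate 1 of the PBS group. In knockout BMDMs it went from 6.88, 6.56 and 6.58 to 0.40, 0.65 and 0.68, a change of -3.35 (SE 0.15, adjusted p = 2.47e-08). *Tfeb* stayed called lower in these 4 comparisons under every alternative that was run.

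In wild-type BMDMs *Tfe3* was 15.4, 15.5 and 16.0 FPKM with PBS and 5.52, 5.77 and 5.70 with LPS, a change of -1.45 (SE 0.05, adjusted p = 4.38e-09). In knockout BMDMs it was 15.1, 16.3 and 15.4 against 6.91, 7.34 and 7.52, a change of -1.09 (SE 0.05). With edgeR these were -0.69, called, and -0.43, under 1.5-fold. In RAW264.7 the libraries of wild type overlapped, at 11.9 to 12.6 FPKM with PBS and 11.3 to 11.97 with LPS, and the difference was -0.06 (SE 0.07) with limma and 0.16 with edgeR. In those labelled knockout all LPS libraries lay below all PBS libraries, with -0.23 (SE 0.07, adjusted p = 0.0315) under the fold threshold, and edgeR gave 0.01. The difference between the cell types was not tested.

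In RAW264.7 wild type had 1 member called lower, *Tfeb*, and 0 higher, against 12.5% and 5.8% of genes. The libraries labelled knockout had 3 lower, *Tfeb*, *Ctsd* and *Lamp1*, and 0 higher, against 14.6% and 7.45%, and the count was 3 without replicate 1 of the PBS group. *Ctsd* changed there by -1.06 (SE 0.13), and by -0.89 without that library. *Lamp1* went from 321, 267 and 264 to 165, 163 and 168 FPKM, a change of -0.77 (SE 0.08) with limma and of -0.54 with edgeR, under the threshold. *Ctsl* differed there by -0.54 (SE 0.12, adjusted p = 0.00708), just under 1.5-fold, and by -0.32 with edgeR. In wild type *Ctsd* at -0.49, *Lamp1* at -0.51 and *Cd68* at -0.34 passed the adjusted p alone, and *Ctsz* at 0.24 was the single member with all LPS libraries above all PBS libraries. The median gene at 1 FPKM or more fell by 0.21 on FPKM in wild type and by 0.23 in the libraries labelled knockout. In wild type edgeR gave *Ctsd* -0.27 (adjusted p = 0.0711), *Lamp1* -0.28 (adjusted p = 0.00693), *Cd68* -0.11 (adjusted p = 0.31) and *Ctsz* 0.46 (adjusted p = 0.0126). *Ctsb* at -0.0068, *Ctss* at -0.0089 and *Ctsl* at -0.22 on FPKM were 0.22, 0.22 and 0.01 with edgeR, none past the adjusted p, so no direction is given for them.

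In BMDMs the sign of *Ctsb*, *Ctsl*, *Ctss*, *Cd68* and *Lamp1*, and of *Ctsd* in wild type, depended on the scale. On FPKM 3 members were called lower with LPS in wild type, *Tfeb*, *Tfe3* and *Ctsd*, and 0 higher, against 32.5% and 7.94% of genes. The same 3 were called in knockout, against 30.9% lower and 8.02% higher. *Ctsd* went from 4066, 4135 and 4002 to 2558, 2379 and 2383 FPKM in wild type, a change of -0.74 (SE 0.04), and from 4160.4, 4154 and 4096 to 2367, 2366 and 2343 in knockout, a change of -0.81. All LPS libraries lay below all PBS libraries. However, the median gene at 1 FPKM or more also fell on this scale, by 0.73 in wild type and 0.62 in knockout, and stood at 0.06 in both after median-ratio scaling. Relative to the median gene *Ctsd* was thus near 0, and edgeR gave 0.04 in wild type and -0.14 in knockout.

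On the scale of edgeR, 2 members were called higher with LPS in wild-type BMDMs, *Ctsz* at 0.87 and *Lamp2* at 0.83, against 25.1% of genes. Lower were 2, *Tfeb* and *Tfe3*, against 30.9%. In knockout *Ctsz* at 0.91 and *Lamp2* at 0.78 were higher, against 23.9%, and *Tfeb* was lower, against 29.6%. On FPKM *Ctsz* was 572, 595 and 557 with PBS and 653, 594 and 593 with LPS in wild type, a change of 0.09 (SE 0.05), with overlap. *Ctss* was -0.20 on FPKM and 0.57 with edgeR, *Ctsb* -0.47 and 0.31, *Ctsl* -0.30 and 0.47, *Cd68* -0.53 and 0.24, and *Lamp1* -0.33 and 0.44, all in wild type. A direction is therefore not given for these 5 genes, nor for *Ctsd* in wild type. *Ctsz* was positive on both scales.

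**Figure D3:**
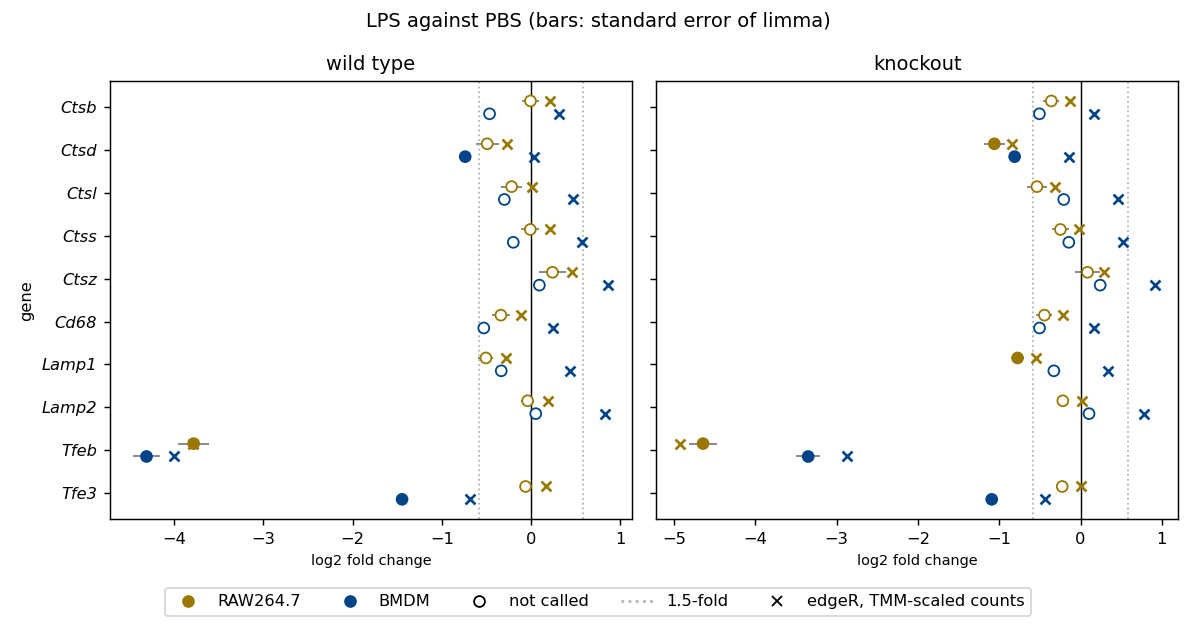
Log2 fold change of LPS against PBS in wild type (left) and knockout (right, as labelled). Circles with standard errors are limma on FPKM, filled where called, and crosses are edgeR on TMM-scaled counts. *Tfeb* lies between -2.88 and -4.93 over both scales and all 4 comparisons, and the crosses of the BMDM cathepsins lie to the right of their circles.

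**Figure D4:**
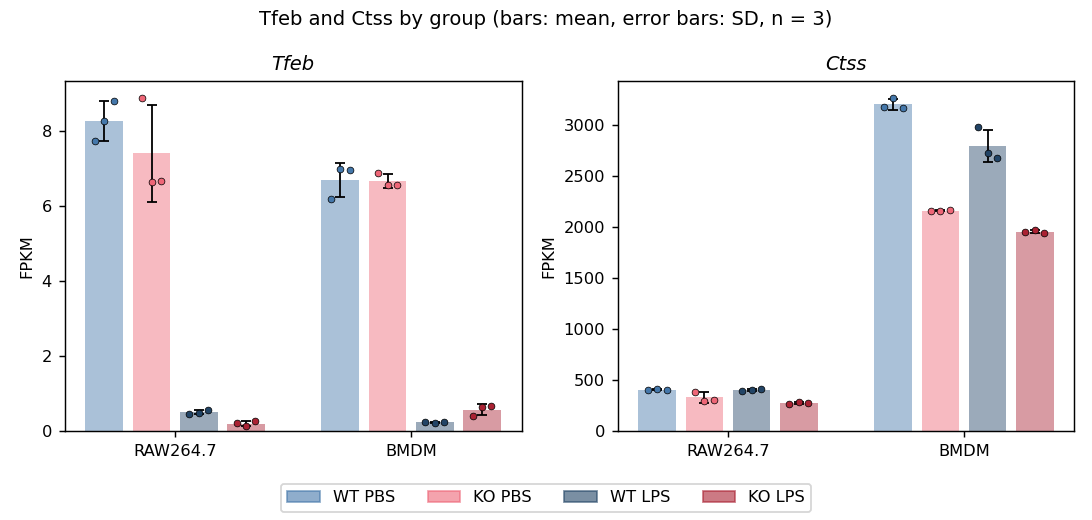
FPKM of *Tfeb* (left) and *Ctss* (right) by group, with bars for the mean, error bars for the SD and points for the 3 libraries. *Tfeb* is near 0 in all LPS groups, and *Ctss* is 2160 and 1955 in knockout BMDMs against 3202 and 2791 in wild type.

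The other genes of the lysosome were counted from lists made by function. Of 35 other hydrolases and their activators, 12 were called lower and 0 higher in knockout-labelled RAW264.7 libraries with LPS (median -0.33), against 7.6% and 9.73% of all genes. With PBS 5 were lower and 1 higher, against 3.77% and 4.79%. Without replicate 1, 6 were lower and 2 higher, where 8% of all genes were lower. The share of genes higher in that fit is not given, so the 2 cannot be set against it. *Npc2*, a cholesterol carrier of the lysosome, was 27.6 against 64.4 FPKM with LPS, and *Gm2a*, the GM2 ganglioside activator, was 1.79 against 5.00. In BMDMs 2 of the 35 were lower and 0 higher in knockout with PBS, against 0.916% and 0.901% of all genes. *Npc2* was 201 against 307 FPKM, a change of -0.61 (SE 0.05), and *Acp5*, the tartrate-resistant acid phosphatase, was 1.14 against 3.07. With LPS 0 of the 35 were called between BMDM genotypes by limma, against 3.23% of all genes higher and 1.53% lower, and 0 by edgeR. At an unadjusted p under 0.05 there were 15.

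Of 8 other cathepsins tested in RAW264.7, 3 were lower in the libraries labelled knockout with LPS and 0 higher, against 7.6% and 9.73% of all genes. With PBS 2 were lower and 1 higher, with and without replicate 1. Over all genes the shares were 3.77% and 4.79% with it, and 8% lower without it. The share higher without it is not given. *Ctse* differed by -1.44 on the log2 scale, and *Ctso* was higher, at 3.57 against 1.25 FPKM. In BMDMs *Ctsc*, which activates granule serine proteases, was the single one of 9 called between genotypes, at 126 against 198 FPKM with LPS, a change of -0.65 (SE 0.04, adjusted p = 1.50e-05). There 1.53% of all genes were called lower with LPS. Of 4 cathepsin inhibitors tested in RAW264.7, 1 was lower in the libraries labelled knockout with PBS and with LPS, against 3.77% and 7.6% of all genes. This was *Cstb*, a cytosolic inhibitor of cysteine cathepsins, at 158 against 276 FPKM with PBS and 147 against 261 with LPS. Without replicate 1 it was 131 with PBS, where 8% of genes were lower. Of 5 in BMDMs limma called 0 between genotypes. The shares of all genes higher and lower were 0.901% and 0.916% with PBS, and 3.23% and 1.53% with LPS. At an unadjusted p under 0.05 there were 3 with PBS and 2 with LPS. With edgeR 0 of 3 were called, where 1.97% of genes were lower with PBS and 4.6% with LPS.

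Of 18 subunits of the V-ATPase, the proton pump of the lysosome, 6 were lower and 0 higher in knockout-labelled RAW264.7 libraries with LPS. The shares over all genes were 7.6% and 9.73%. *Atp6v0d1* was lower by 0.72 on the log2 scale. In BMDMs limma and edgeR called 0 between genotypes. Over all genes limma called 0.901% higher and 0.916% lower with PBS, and 3.23% and 1.53% with LPS. At an unadjusted p under 0.05 there were 2 subunits with PBS and 7 with LPS. Of 17 other membrane proteins 4 were lower and 1 higher in the line with LPS, against 7.6% and 9.73% of all genes. *Cd63* was at 19.8 against 50.6 FPKM and *Npc1* at 3.35 against 2.05. Of 9 sorting genes, 3 were higher in the libraries labelled knockout with LPS and 0 lower, against 9.73% and 7.6% of all genes, and the list's median was 0.02. *Igf2r*, a mannose 6-phosphate receptor, was 59.2 against 21.0 FPKM. Of 13 genes of the MiT/TFE family and its control, 4 were higher and 1 lower, against 9.73% and 7.6% of all genes. *Mtor* was at 10.3 against 6.05 FPKM.

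Most of the hydrolases were lower with LPS in the line on FPKM. In wild-type RAW264.7 27 of 35 were called lower and 1 higher on FPKM, against 12.5% and 5.8% of all genes. With edgeR 14 were lower and 1 higher, where 4252 of 13639 genes were called, 46.9% of them higher. *Sgsh*, the heparan N-sulfatase, was 0.88 against 6.78 FPKM. In wild-type BMDMs 25 were lower and 1 higher on FPKM, but 7 lower and 4 higher with edgeR, against 32.5% and 7.94% of all genes on FPKM and 30.9% and 25.1% with edgeR. In a fit of only the 11492 BMDM genes at 1 FPKM in 3 libraries, 7979 were called on FPKM, 18.7% of them higher. There *Sgsh* was 0.99 against 20.2 FPKM, a change of -4.22 with limma and -3.58 with edgeR. *Acp5* went the other way, at 49.7 against 3.07. Of the 13 MiT/TFE genes in wild-type BMDMs, 7 were lower and 2 higher on FPKM, and 3 lower and 4 higher with edgeR, against the same shares. *Flcn*, the folliculin gene, was 2.46 against 19.4 FPKM and *Rragd*, a Rag GTPase, was 1.18 against 10.6. *Tfec* and *Mitf*, relatives of *Tfeb*, were higher, at 20.4 against 4.99 and 25.1 against 16.3 FPKM. *Flcn* fell less in knockout BMDMs, with an interaction of 0.85 (SE 0.10, adjusted p = 0.00133). *Ctns* at 0.69 and *Fnip2* at 0.59 were also called higher there, as 1.91% of all genes were. *Acp5* had an interaction of 1.92 (SE 0.16, adjusted p = 2.10e-04). It was lower in knockout with PBS, but its LPS means were 73.7 FPKM in knockout and 49.7 in wild type, not called.

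**Figure D5:**
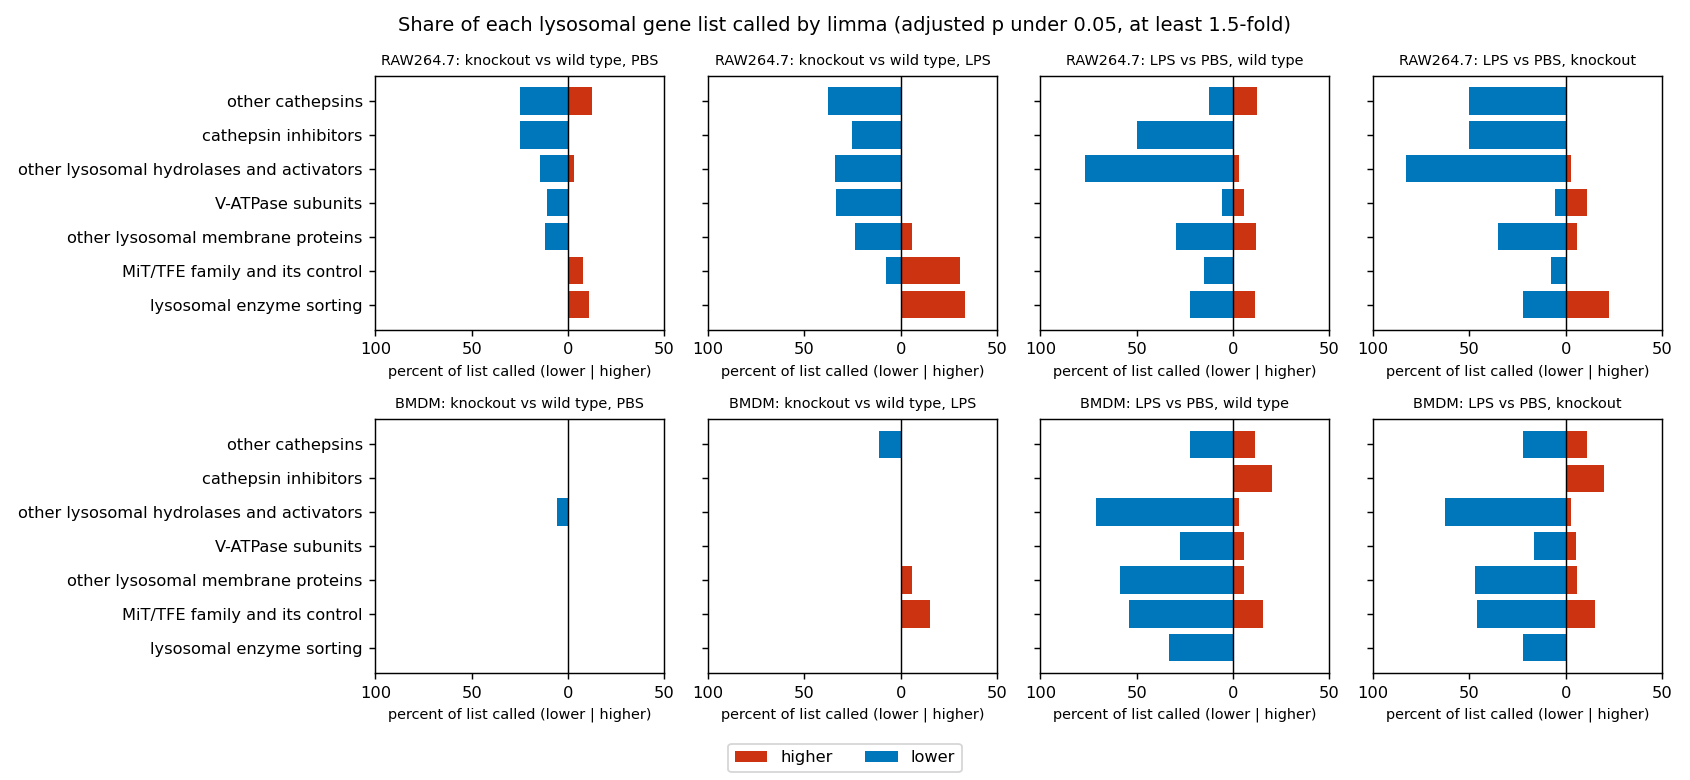
Percent of each lysosomal gene list called lower (blue, to the left) and higher (red, to the right) by limma, for 4 comparisons in RAW264.7 (top) and BMDMs (bottom). In the hydrolase row 12 of 35 are lower between RAW264.7 genotypes with LPS, and 0 of 35 between BMDM genotypes with LPS.

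The genes most like each member were found by Pearson's r of log2(FPKM + 0.1) over the 12 libraries of a cell type, among 11211 genes in RAW264.7 and 10472 in BMDMs. The libraries share groups and depth, so r describes a shared pattern over 4 groups. *Tfeb* was closest to *Dgkz* in RAW264.7 (r = 0.998) and to *Mesd* in BMDMs (r = 0.999). *Tfe3* was closest to *Jun* (r = 0.982) and *Arhgap1* (r = 0.999). In BMDMs *Ctsb* was closest to *Ctsd* (r = 0.999), *Ctsd* to *Trem2* (r = 0.999) and *Ctss* to *H2-Aa* (r = 0.981), a chain of MHC class II. *Ctsl* lay closest to *Aif1* (r = 0.972), *Ctsz* to *Lilrb4b* (r = 0.961), *Cd68* to *Hexa* (r = 0.998), *Lamp1* to *Mfge8* (r = 0.996) and *Lamp2* to *B2m* (r = 0.968). In RAW264.7 the closest were *Clic1* to *Ctsb* (r = 0.991), *Ywhah* to *Ctsd* (r = 0.996), *Akr1b8* to *Ctsl* (r = 0.990) and *Fth1* to *Ctss* (r = 0.993). For *Ctsz* it was *Psmd6* (r = 0.997), for *Cd68* *Slc25a4* (r = 0.997), for *Lamp1* *Akt1* (r = 0.998) and for *Lamp2* *Mapre2* (r = 0.946). None of the 10 members had the same closest gene in both cell types.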

How the data were processed

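For RNA-seq of 24 libraries the authors deposited raw counts and FPKM per gene, each cell type in a file of its own. No aligner or counting program is named (not given in the sources used here). For the build, the submitters' processing notes name mm10, but only 2.76% of genes have the coordinates of GENCODE M21 on GRCm38, so the tables' positions were not used. Conditions came from titles, which the genotype tag goes against for 12 of 24 libraries. One model of 4 groups for each cell type was fitted to log2(FPKM + 0.1) with limma 3.58.1 under R 4.3.3, over 26740 and 26973 genes with FPKM above 0 in a library, and called with the thresholds of the study. A fold change of exactly 1.5, within rounding error, counted as reached. Counts at an unadjusted p under 0.05 are given without the share over all genes, so they cannot be set against it. The same holds for non-overlap of libraries outside the RAW264.7 genotype comparisons. edgeR 4.0.16 (quasi-likelihood) and DESeq2 1.42.0 were run on the deposited counts. Totals were 11638273 to 16478616 counts in RAW264.7 and 17121240 to 22873094 in BMDMs. Tests were tried on simulated data first. Members and lists were chosen with earlier results of these data known. Besides members and markers, the rule named up to 2 called genes per list, comparison and direction with the largest change at a mean of 1 FPKM or more, and the closest gene by r.
Alternatives were a pseudocount of 1, a filter of 1 FPKM in 3 libraries, TPM, median-ratio scaling, an intensity trend, 2 groups alone, the adjusted p alone, the replicate number as a block, and each library left out.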

Additional observations from a re-analysis of the deposited data

Results flagged for a closer look

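*Tfeb* fell less with LPS in knockout than in wild-type BMDMs, a difference of 0.96 on the log2 scale by limma's interaction term. With a pseudocount of 1 it was 0.34 (adjusted p = 0.0486), under 1.5-fold. With LPS the knockout libraries of *Tfeb* also lay on opposite sides of wild type in the cell types, with -1.03 in RAW264.7 and 0.95 in BMDMs, every library of each on its side. *Tfe3* did the same, with -0.35 in RAW264.7 and 0.35 in BMDMs. The difference between the cell types was not tested, as their tables were made separately. *Olfml3* was not low in the knockout-labelled RAW264.7 libraries.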

How the results depend on the processing

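Of the single-gene values, 2096 kept their direction and call or lack of one (98 of them changed sign without a call in either setting), 22 lost a call, 57 gained one and 5 reversed, all 5 in LPS against PBS in wild-type BMDMs. There *Ctsd* was 0.066 with median-ratio scaling, 0.035 with edgeR and 0.067 with DESeq2, and *Ctss* 0.60 with median-ratio scaling and 0.61 with DESeq2. These scalings move the median gene, and the share of calls that were higher rose from 19.6% to 47.9% there with median-ratio scaling, from 20.6% to 46.8% in knockout BMDMs, from 31.7% to 49.7% and from 33.8% to 51.7% in RAW264.7 wild type and libraries labelled knockout. It fell from 67.9% to 43.4% for BMDM genotypes with LPS and from 65.1% to 46.8% for the BMDM interaction. TPM raised it from 56.0% to 72.5% and from 56.1% to 75.8% for RAW264.7 genotypes with PBS and LPS.

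The number of members called moved as follows. By adjusted p alone it was 4 and 10 for RAW264.7 genotypes with PBS and LPS, and 4 for BMDM genotypes with PBS, all lower. The shares of all genes lower by that rule were 5.36%, 11.5% and 1.83%. It was 4 and 8 for LPS in RAW264.7 wild type and libraries labelled knockout, and 6 for BMDM genotypes with LPS. It was 8 and 9 for LPS in BMDM wild type and knockout, and 2 for the BMDM interaction. For these latter comparisons the share over all genes by adjusted p alone is not given, so their counts cannot be set against it. For RAW264.7 genotypes the number of members called was 1 with PBS when the 2 groups were fitted alone, and 3 with LPS on TPM. For the RAW264.7 interaction it was 1 with edgeR and 1 with DESeq2. For BMDM genotypes with PBS it was 1 with median-ratio scaling, edgeR and DESeq2. With LPS it was 2 with the same 3 settings and 0 with a pseudocount of 1. LPS in wild-type BMDMs gave 5 with median-ratio scaling and 5 with DESeq2. The BMDM interaction gave 0 with a pseudocount of 1, and 0 to 1 when 1 library was left out. Smaller moves were from 2 to 3 for RAW264.7 genotypes with PBS without replicate 1 of that group, from 6 to 5 with LPS and a pseudocount of 1, from 3 to 2 for LPS in the libraries labelled knockout with median-ratio scaling, edgeR and DESeq2 and to 4 without replicate 2 of their PBS group, and from 3 to 4 for LPS in wild-type BMDMs with edgeR. Where no value above shows the cause, the cause was not tested.

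Samples with the same replicate number did not deviate together (correlation of deviations -0.04 to 0.08 in RAW264.7 and -0.06 to 0.07 in BMDMs), so the numbers do not pair them. The fit with the replicate block gave the same number of member calls in all 10 comparisons, for example 6 for RAW264.7 genotypes with LPS and 1 for the BMDM interaction, where *Tfeb* was 0.96 with an adjusted p of 0.044. Depth limits *Tfeb* with LPS, which rests on 10 to 84 counts per library.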
